A study of Sus scrofa with 32 samples.

Results

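C7 and C4BPA are 2 complement genes that act at opposite ends of the cascade. The C4BPA probe set may instead measure a relative, apolipoprotein R, as set out below. RNA was followed with the probe sets of these symbols in 3 tissues of obese and lean juvenile Ossabaw swine. They were found as all probe sets that carry the symbol C7 or C4BPA in the human symbol file the authors paired with their array, which gave 2 probe sets, 1 per gene, out of 14327 in the deposited table. Both passed the filter on low values that 10029 probe sets passed. The 2 genes were chosen by their measured levels and differences across all 6 groups, so their levels and differences are given with errors and without p-values.

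The obese group was 5 pigs fed a diet high in fat, high fructose corn syrup and cholesterol for 16 weeks, and the lean group was 6 pigs fed a commercial low fat diet for the same time. All were Ossabaw miniature swine of 22 weeks, a strain prone to obesity and here a model of childhood obesity, and the labels give no other treatment. Each pig gave 3 tissues, the coronary artery known as left anterior descending (LAD), the fat around that vessel (PVAT) and part of the descending thoracic aorta (TA), with 1 Affymetrix porcine array per tissue and no TA array for pig 63. That makes 5 obese and 6 lean LAD arrays, 5 obese and 6 lean PVAT arrays, and 5 obese and 5 lean TA arrays, 32 in all. The arteries had been freed of fat and excess adventitia, and the fat was extracted with a different RNA kit from the arteries, so kit and tissue cannot be told apart wherever PVAT is compared with an artery.

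Complement is a plasma protein cascade that tags particles and cells for removal. The classical pathway starts with C1q and splits C4 and then C3, and the terminal pathway ends with C5b to C9 joining into a pore in the target membrane. C7 is the component that lets the growing C5b-C6 complex insert into a membrane. C4BPA is the alpha chain of C4b-binding protein, a plasma inhibitor that binds C4b and helps factor I to cut it, which slows the classical and lectin pathways. Liver makes most plasma complement, while C7 is also made outside the liver, for example by stromal and endothelial cells.

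Values are deposited log2 expression values, and a difference of 1 is a factor of 2. The number of arrays limits the precision. Array medians ran from 8.32 to 8.56. One array was unlike the rest: in the aorta of obese pig 57, 824 probe sets were more than 2 log2 units off the TA median, while no other array had over 63 such probe sets. RNA quality, given in the labels as the ratio of 28S to 18S ribosomal RNA, was under 0.8 in 6 arrays, 2 obese arrays in each tissue and no lean one. Means over listed marker genes were set beside the tissue labels. The mean over 6 of 8 listed smooth muscle genes was 12.23 to 12.68 in obese and 12.42 to 12.89 in lean LAD, and 10.98 to 12.07 in obese and 11.63 to 12.07 in lean TA. In PVAT it was 9.80 to 10.93 in obese and 9.97 to 11.08 in lean pigs. The mean over 4 of 9 listed adipocyte genes was 10.26 to 12.37 in obese and 11.00 to 12.13 in lean PVAT, above its range in both arteries. ADIPOQ, 1 of the 4, differed little between tissues. Its mean was 10.85 in obese and in lean PVAT, 10.72 in obese and 10.56 in lean LAD, and 10.50 in obese and 10.59 in lean TA. Heart muscle genes (11 of 14 listed) had means of 7.41 to 11.96 in obese and 7.54 to 12.59 in lean LAD, and 9.25 to 12.76 in obese with lean PVAT from 6.50 to 12.61, against at most 6.79 in TA. Their part in the tissue differences below was not tested beyond a fit with that mean as a covariate.

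The platform annotation too names the C7 probe set C7 (gene ID 397526). C7 had a mean of 8.04 over the 32 arrays, the 39.2nd percentile of all probe sets. A second probe set has the symbol CA13 in the authors' file but the same gene ID as C7 in the platform annotation. It is not counted as C7 here and is given beside it. The RefSeq gene table (assembly Sscrofa11.1) places C6, the partner that C7 binds to in the pore complex, 2 genes away from C7.

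The C4BPA probe set (gene ID 396982) had a mean of 11.7, the 96.5th percentile of all probe sets. Its identity has a limit. The platform annotation ties it to a RefSeq gene with the symbol C4BPA and the synonym APOR, the name of porcine apolipoprotein R, a lipoprotein-associated plasma protein of the same short consensus repeat family as C4b-binding protein. In RefSeq 2 neighbouring pig genes carry the symbol C4BPA, beside C4BPB, CD55 and CR1, other complement regulators and receptors. The probe set is tied to the one with the synonym APOR, and which of the 2 transcripts it measures was not tested. It is called C4BPA below, as in the authors' file.

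C7 separated the 3 tissues. It was highest in PVAT, 1.37 lower in LAD and far lower in TA, where all 10 arrays lay below 6.64, the log2 of an intensity of 100 that every deposited probe set reaches in at least 11 arrays. PVAT, LAD and TA arrays did not overlap, whichever diet the pigs had eaten. Obese and lean pigs overlapped in every tissue.

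In obese PVAT, C7 was 9.21, 10.54, 10.10, 9.42 and 9.20 in pigs 51, 55, 57, 81 and 85. In lean PVAT, C7 ran from 9.34 to 10.68 with a median of 9.69 over 6 pigs. The diets covered the same range in fat.

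In obese LAD, C7 was 8.34, 8.24, 8.51, 7.89 and 8.21 in the same order of pigs. In lean LAD it ran from 8.11 to 8.93 with a median of 8.45. The highest LAD array, lean pig 63, was below the lowest PVAT array.

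In obese TA, C7 was 5.29, 6.48, 6.40, 6.05 and 5.60, and in lean TA it was 5.96, 5.25, 5.73, 5.00 and 5.96 in pigs 48, 56, 73, 80 and 86. No TA array reached the lowest LAD array of 7.89. With TA this low and no detection calls in the files, differences of C7 from TA are given as lower bounds, with TA set to 6.64.

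**Figure D1:**
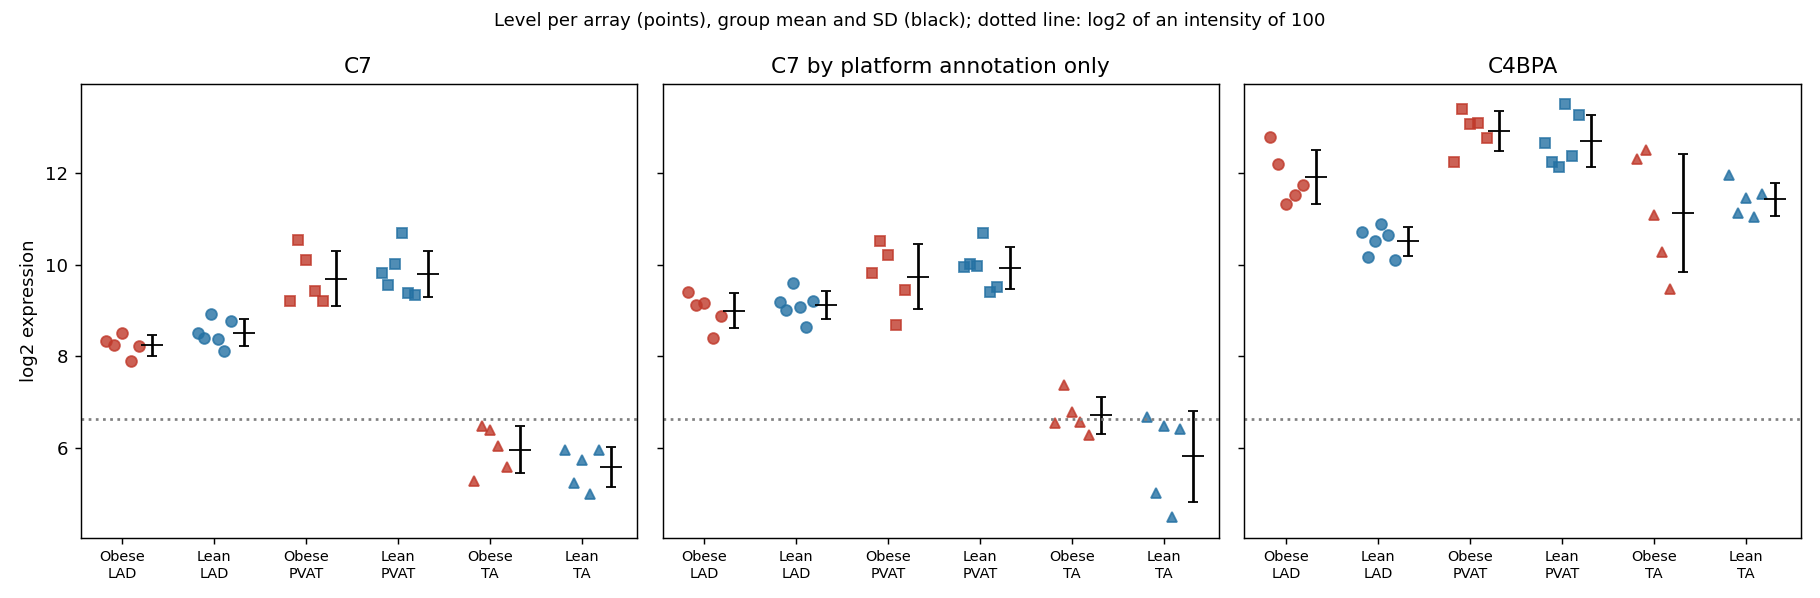
Level of C7, of the probe set that only the platform annotation names C7, and of C4BPA in each array (points, log2 expression), with group mean and SD in black for obese (red) and lean (blue) pigs. C7 lies at 3 levels, highest in PVAT and lowest in TA, where all 10 arrays are below 6.64 (dotted line), and C4BPA has all 5 obese LAD arrays above all 6 lean ones.

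Group means of C7 gave the order lean PVAT (9.80 ± 0.50, SD, n = 6), obese PVAT (9.69 ± 0.60, n = 5), lean LAD (8.51 ± 0.30, n = 6), obese LAD (8.24 ± 0.22, n = 5), obese TA (5.96 ± 0.52, n = 5) and lean TA (5.58 ± 0.44, n = 5). The neighbours within a tissue overlapped, and the neighbours across tissues did not.

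PVAT minus LAD, the mean of the obese and the lean difference in 1 limma fit of the 6 groups, was 1.37 for C7 (SE 0.18), a 2.59-fold higher level in PVAT. It was 1.46 in obese and 1.29 in lean pigs. All 11 PVAT arrays lay above all 11 LAD arrays, as for 3.81% of the tested probe sets, and the difference ranked 480 of 10029 in size. LAD minus TA was at least 1.73, with no overlap in that direction for 3.18% of probe sets. PVAT minus TA was at least 3.10, with no overlap in that direction for 4.96%. These shares are the background for a gene chosen for its pattern, and nothing is read from them about C7.

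Within single pigs the order never changed. C7 was higher in PVAT than in the LAD of the same animal in 11 of 11 pigs, by 0.57 to 2.32. It was higher in LAD than in TA in 10 of 10 pigs, with lower bounds of 1.25 to 2.13, and higher in PVAT than in TA in 10 of 10, with lower bounds of 2.56 to 4.04. Lean pig 86 had the smallest step between fat and coronary artery and lean pig 73 the largest.

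**Figure D2:**
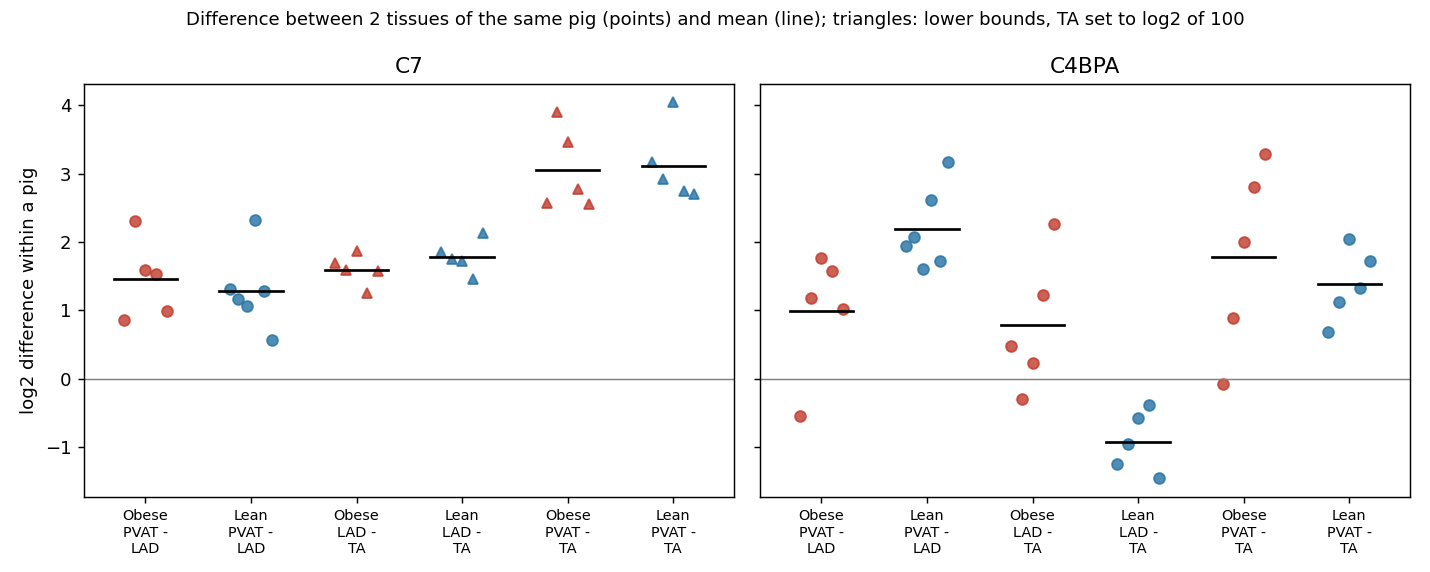
Log2 difference between 2 tissues of the same pig for C7 and C4BPA, each point a pig, with the mean as a line, for obese (red) and lean (blue) pigs. Triangles are lower bounds, with TA set to 6.64. Every C7 point lies above 0, whereas C4BPA in LAD minus TA lies above 0 in 4 of 5 obese pigs and below 0 in all 5 lean pigs.

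The diet difference of C7, obese minus lean, was -0.27 in LAD (SE 0.15) and -0.10 in PVAT (SE 0.30). The groups overlapped in each tissue, and none is given in TA, where both lie below 6.64. Pigs were killed on 3 dates. Within them the LAD difference was -0.29, -0.16 and -0.36, so its sign held for this probe set. It did not hold in PVAT, with 0.54, -0.61 and -0.49. Each date held 1 or 2 obese and 1 to 3 lean pigs per tissue.

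The probe set that only the platform annotation names C7 followed C7 across tissues. It averaged 9.73 ± 0.71 in obese and 9.93 ± 0.46 in lean PVAT, and 6.71 ± 0.41 in obese and 5.82 ± 0.99 in lean TA (SD). In LAD it ran from 8.40 to 9.41 in obese pigs and from 8.63 to 9.59 in lean ones. In TA 7 of its 10 arrays were below 6.64, so its LAD minus TA is a lower bound, at least 2.32. Its PVAT minus LAD was 0.77 (SE 0.24). PVAT and LAD arrays overlapped for it, which they did not for C7. Its obese minus lean difference in LAD was -0.12 (SE 0.19). Within the 3 sacrifice dates that difference was -0.15, 0.22 and -0.33, so its sign did not hold as it did for C7. In TA its obese arrays ran from 6.29 to 7.37 and its lean arrays from 4.49 to 6.67.

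C4BPA had a different shape. It was high everywhere and highest in PVAT, and the diet groups parted in the coronary artery. All 5 obese LAD arrays lay above all 6 lean LAD arrays, by 1.40 in the mean. PVAT and TA showed no such split.

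In obese LAD, C4BPA was 12.78, 12.20, 11.31, 11.51 and 11.73 in pigs 51, 55, 57, 81 and 85. In lean LAD it ran from 10.10 to 10.88 with a median of 10.59 over 6 pigs. The lowest obese pig, 57, was above the highest lean pig, 73.

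In obese PVAT, C4BPA was 12.24, 13.38, 13.07, 13.09 and 12.75, and in lean PVAT it ran from 12.12 to 13.49 with a median of 12.51. The highest and the lowest fat arrays were both lean.

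In obese TA, C4BPA was 12.30, 12.49, 11.08, 10.28 and 9.46, and in lean TA it was 11.95, 11.12, 11.44, 11.04 and 11.55 in pigs 48, 56, 73, 80 and 86. The obese aortas thus spanned the lean ones, with pigs 51 and 55 above every lean array and pigs 81 and 85 below every lean array. The aortas of pigs 81 and 85 had 28S to 18S ratios of 0.61 and 0.57, against 1.28 to 2.14 in the other obese and 1.17 to 1.54 in the lean aortas.

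The order of the C4BPA means was obese PVAT (12.91 ± 0.43, SD, n = 5), lean PVAT (12.69 ± 0.57, n = 6), obese LAD (11.91 ± 0.59, n = 5), lean TA (11.42 ± 0.37, n = 5), obese TA (11.12 ± 1.30, n = 5) and lean LAD (10.50 ± 0.31, n = 6). Every pair of neighbours in this order overlapped.

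The diet difference of C4BPA in LAD was 1.40 (SE 0.25), 2.64-fold higher in obese pigs, and ranked 48 of 10029 in size. Of all tested probe sets, 1.31% had every obese LAD array above every lean one. In PVAT the difference was 0.22 (SE 0.28) and in TA -0.30 (SE 0.54), with overlap in both. Without the 6 arrays with a ratio under 0.8, the difference was 1.50 in LAD, 0.38 in PVAT and 0.54 in TA, so that of TA changed its sign. TA also turned positive, to 0.12, without pig 85.

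Within the 3 dates of sacrifice the C4BPA difference in LAD was 1.41, 2.08 and 1.08. The PVAT values were 1.05, -0.40 and -0.12, and those of TA 0.67, 0.35 and -1.47. In LAD the sign could not change between dates, since every obese array lay above every lean one. It is therefore no further result. In PVAT and TA, where the arrays overlapped, the sign changed between dates.

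**Figure D3:**
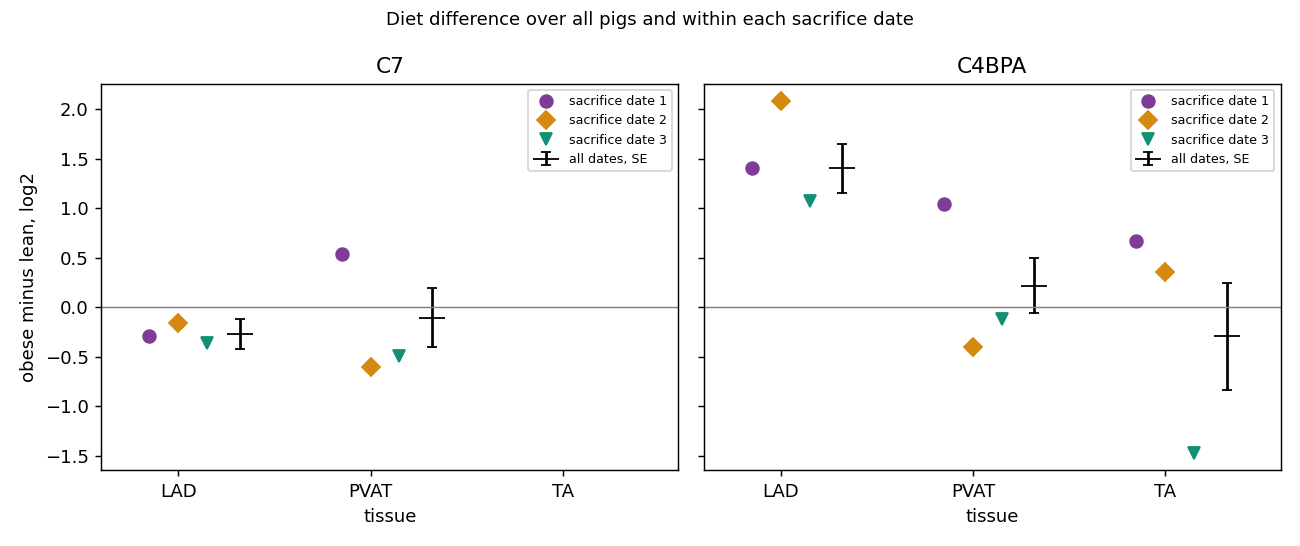
Obese minus lean difference (log2) of C7 and C4BPA in LAD, PVAT and TA within each of 3 sacrifice dates (coloured symbols) and over all dates with its SE (black). For C4BPA the LAD values of 1.41, 2.08 and 1.08 lie above 0, while the PVAT and TA values lie on both sides of it. The sign in LAD was fixed, since its obese and lean arrays did not overlap. C7 in TA is not drawn, since both groups lie below 6.64.

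The diet differences were also set against each other between tissues, without a test. For C4BPA the LAD difference minus the TA difference was 1.70 (SE 0.56), rank 12 of 10029, and it was 0.97 without the arrays with a ratio under 0.8. The PVAT difference minus the LAD difference was -1.19 (SE 0.54), rank 59. The PVAT difference minus the TA difference was 0.51 (SE 0.56), and -0.15 without those arrays. For C7 the PVAT difference minus the LAD difference was 0.17 (SE 0.37). Pairs of these share a tissue, and they were chosen with the values known.

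Tissue differences of C4BPA took different values in the 2 diets. LAD minus TA was 0.78 in obese pigs, where the arrays overlapped, and -0.91 in lean pigs, where all 6 LAD arrays lay below all 5 TA arrays, as for 7.35% of probe sets. Within pigs LAD exceeded TA in 4 of 5 obese pigs, by up to 2.26 in pig 85, and in 0 of 5 lean pigs. In pigs 85 and 81 (2.26 and 1.23) the TA arrays had 28S to 18S ratios of 0.57 and 0.61. In pigs 55 and 57 (-0.29 and 0.23) the LAD arrays had 0.69 and 0.63. Pig 51 (0.48) had 1.26 in LAD and 1.28 in TA, and lean artery arrays had at least 1.13. PVAT minus LAD was 1.00 in obese and 2.18 in lean pigs, and the arrays were apart in lean pigs, as for 9.88% of probe sets. Pig 51 was the 1 animal of 11 with less C4BPA in its PVAT than in its LAD, at -0.55. The PVAT array of pig 51 had a 28S to 18S ratio of 0.57, the lowest in PVAT. PVAT minus TA was 1.78 in obese and 1.27 in lean pigs, with lean arrays apart, as for 15.5% of probe sets, and pig 51 again at -0.07.

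Macrophage marker genes, taken as a mean, had the same split in LAD as C4BPA. Macrophages are phagocytes of the vessel wall and of fat, and 5 of 8 listed markers were measured, namely CD163, CSF1R, CD14, LYZ and CTSS. Their mean was 9.49 to 10.88 in obese and 8.44 to 9.38 in lean LAD, with no overlap, as for 1.31% of single tested probe sets. It was 9.47 to 10.61 in obese and 9.20 to 10.07 in lean PVAT. In TA it was 8.51 to 10.42 in obese pigs and 8.59 to 9.48 in lean ones. In the obese aortas of pigs 81 and 85, the ones with the least C4BPA, it was 8.77 and 8.51, against 10.42, 10.35 and 9.83 in pigs 51, 55 and 57. With this mean as a covariate the C4BPA diet difference in LAD was 0.15 (SE 0.20). Since the mean itself split the diets in LAD, this fit cannot separate it from diet. By marker, obese and lean LAD means were 12.48 and 9.41 for LYZ, 12.49 and 10.68 for CTSS, and 9.34 and 8.23 for CD163. They were 9.57 and 8.92 for CSF1R, and 7.14 and 6.73 for CD14, which did not pass the low value filter. In TA the obese mean of LYZ was 11.66 against 9.09 in lean pigs, and CTSS had 11.63 against 10.97. CD163, CSF1R and CD14 had lower obese than lean TA means. In bulk tissue, fewer cells of a type and less RNA per cell cannot be told apart. Whether macrophages are the source of the C4BPA signal was not tested.

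The genes most like C4BPA, by Pearson r over the 32 arrays and 6692 genes, were FCGR2C (0.957; platform symbol FCGR2B), CD163 (0.939), FCGR3A (0.922), CSF1R (0.899) and C1QB (0.889). FCGR2C and FCGR3A are Fc receptors for antibody, CD163 is the haemoglobin scavenger receptor of macrophages, and CSF1R is the receptor for their growth factor. With the 6 group means removed, the top 5 were FCGR3A (0.895), FCGR2C (0.884), C1QB (0.876), CD163 (0.875) and CD53 (0.873). CD53 is a leukocyte tetraspanin. The arrays share pigs, so these r values describe this set and carry no p.

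C4BPA and the macrophage mean had an r of 0.73 over all arrays and 0.82 with group means removed. Of the 12 marker lists, this was the highest r for C4BPA with group means removed. Over all arrays other lists came near it, with 0.70 for adipocyte, 0.64 for lymphatic and -0.66 for smooth muscle genes. With group means removed these were 0.25, 0.06 and 0.02. The 1 hepatocyte marker measured, APOA1, had r values of 0.47 and -0.32.

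**Figure D4:**
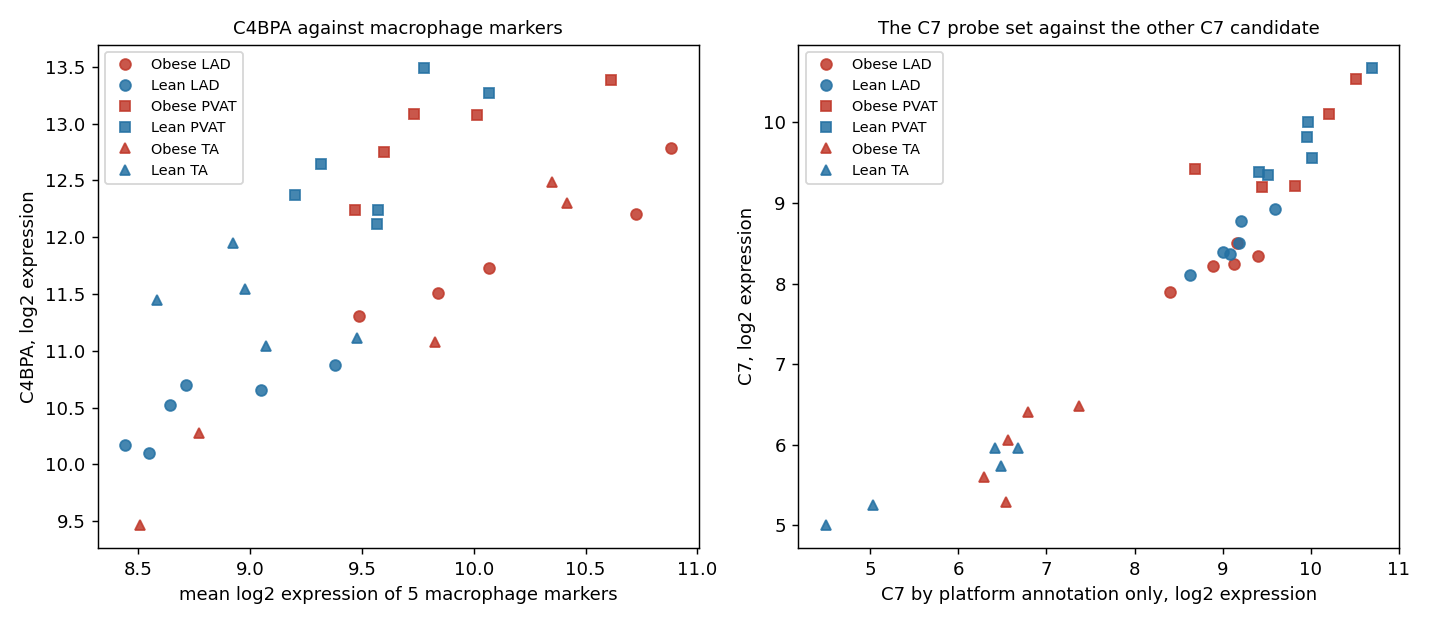
Left, C4BPA against the mean of 5 macrophage markers in each array, and right, C7 against the probe set that only the platform annotation names C7 (all log2 expression; colour for diet, symbol for tissue). The 2 C7 candidates lie along 1 line over all tissues (r = 0.967), and obese LAD arrays lie above lean ones on both axes of the left panel.

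For C7 the most alike were the probe set with the symbol CA13 and the platform symbol C7 (r = 0.967), TMEFF2 (0.957), MBP (0.950), THBS4 (0.949) and CFD (0.948). MBP is myelin basic protein of Schwann cells, THBS4 a matrix glycoprotein and CFD the adipocyte protease factor D, which activates the alternative pathway. Like C7, the means of TMEFF2, MBP, THBS4 and CFD were highest in PVAT and lowest in TA. With group means removed, the list was CA13 (0.798), RMND5B (0.739), OBSL1 (0.734; platform symbol CCL21), LYVE1 (0.698) and NFX1 (0.696). LYVE1, a hyaluronan receptor, and CCL21, a chemokine, are known from lymphatic vessels. Within tissues the r of LYVE1 with C7, group means removed, was 0.81 in PVAT, -0.30 in LAD and 0.92 in TA, where all C7 values lie below 6.64.

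The mean of 4 of 6 lymphatic markers was 8.68 to 9.93 in obese and 9.03 to 9.97 in lean PVAT, 6.36 to 7.69 in obese and 6.14 to 8.70 in lean LAD, and 6.06 to 8.06 in obese and 6.01 to 8.13 in lean TA. Its r with C7 was 0.70 over all arrays and 0.65 with group means removed. Both r values include TA, where all C7 values lie below 6.64. PROX1, 1 of the 4 markers, had LAD and TA means below 6.64 in both diets. The mean of the 6 Schwann cell and nerve markers had an r with C7 of 0.93 and 0.01, so the match across tissues was not found between pigs of a group. Other lists also had a high r with C7 over all arrays, 0.92 for the hepatocyte marker APOA1, 0.86 for fibroblast, 0.85 for endothelial and 0.82 for adipocyte genes. With group means removed these were 0.17, 0.27, 0.11 and 0.43, and the mesothelial list had 0.41. What part these cells have in the C7 signal was not tested. Between C7 and C4BPA, r was 0.51 and 0.30.

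Of 60 listed complement genes, 27 had a probe set with that symbol and 20 passed the low value filter, 18 of them besides C7 and C4BPA. Called means an adjusted p under 0.05 in limma, with Benjamini-Hochberg adjustment over all 10029 probe sets.

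For diet in LAD, 1 of the 18 was higher in obese pigs and 0 lower, against 0.0448% of genes called higher and 0% lower. It was C1QA, a chain of C1q, at 9.77 ± 0.53 in obese and 8.16 ± 0.25 in lean LAD (1.61, adjusted p = 0.0482, n = 5 and 6). C1QB (1.57) and C1QC (1.68) had an adjusted p of 0.069, and VSIG4, a macrophage receptor for C3 fragments, 0.106 (1.83). The C1QA call was lost without any 1 of 9 pigs, all but 57 and 81. Without either of those 2 pigs, and in 1 fit of all 6 groups, whether or not pig was a block, C1QA, C1QB, C1QC and VSIG4 were all called. The median over the 18 genes was 0.22, beside -0.05 over all 6694 genes, and 13 of the 18 were positive. At an unadjusted p under 0.05, 6 of the 18 were higher and 1 lower, beside 5.96% and 10.7% of all genes.

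No complement gene was called for diet in PVAT or in TA by limma, where 0% of genes were called. At an unadjusted p under 0.05, 0 of the 18 passed in PVAT, beside 1.34% of all genes higher and 0.911% lower. In TA 1 was higher and 0 lower, beside 3.96% and 2.61%. None of the 18 was called for a diet difference that differed between tissues by this test, with a smallest adjusted p of 0.854. The share of all genes called is not given for these comparisons, so the lack of calls has no background. In the LAD difference minus the TA difference, C1QB with 1.66 (SE 0.47) and FCN2 with -1.09 (SE 0.56) were not called. The lack of calls therefore does not show that the diet differences of the 18 were alike in the tissues.

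C3, the hub on which all pathways meet, had no symbol in the authors' file and was found by the platform annotation. It averaged 12.45 ± 0.61 in obese and 11.16 ± 0.34 in lean LAD, a difference of 1.29 (SE 0.26, adjusted p = 0.102 in limma). It averaged 11.87 ± 0.49 in obese and 11.81 ± 0.32 in lean PVAT, and 10.80 ± 0.98 in obese and 10.35 ± 0.37 in lean TA. Its LAD minus TA was 1.23 (limma adjusted p = 1.6e-04).

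Across tissues, more of the complement genes were called higher than lower in PVAT against either artery, and in LAD against TA. In PVAT minus LAD, 10 of the 18 were higher and 1 lower, beside 26.1% and 30.4% of all genes, with a median of 0.54 beside -0.02. With platform symbols 6 were called. In LAD minus TA, 7 were higher and 0 lower (background 14% and 10.5%), median 0.42 beside 0.01. In PVAT minus TA, 14 were higher and 1 lower (background 28% and 31.1%), median 0.73 beside -0.02. With the cardiomyocyte mean as a covariate, 8 were higher and 1 lower.

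Among the soluble proteins that act on the cascade, PTX3, a pattern recognition protein that binds C1q, was 0.74 higher in PVAT than in LAD and 1.19 higher in LAD than in TA, the same order as C7. CFI, the protease for which C4b-binding protein is a cofactor, was 1.48 higher in PVAT than in LAD, while LAD minus TA was not called and its lean TA mean was below 6.64. SERPING1, the C1 inhibitor, was 0.45 higher in LAD than in TA, with -0.01 for PVAT minus LAD. CLU, clusterin, which blocks the pore complex, was the 1 gene lower in PVAT, with -0.55 for PVAT minus LAD and -0.62 for PVAT minus TA.

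Of the initiators, FCN2, a ficolin that starts the lectin pathway, was 2.19 higher in PVAT than in LAD and 1.63 higher in LAD than in TA. CFD was 1.29 and 1.32 higher, and MASP2, the lectin pathway protease, 1.11 and 0.55. C4B (platform symbol C4A), the source of the C4b that C4b-binding protein binds, was 0.73 higher in PVAT than in LAD, with -0.21 for LAD minus TA. C1S, a protease of the C1 complex, was 0.55 higher in LAD than in TA and 0.66 higher in PVAT than in TA. C1QBP, a protein that binds C1q, was 0.44 higher in PVAT than in LAD. All of the values said here to be higher or lower were called.

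**Figure D5:**
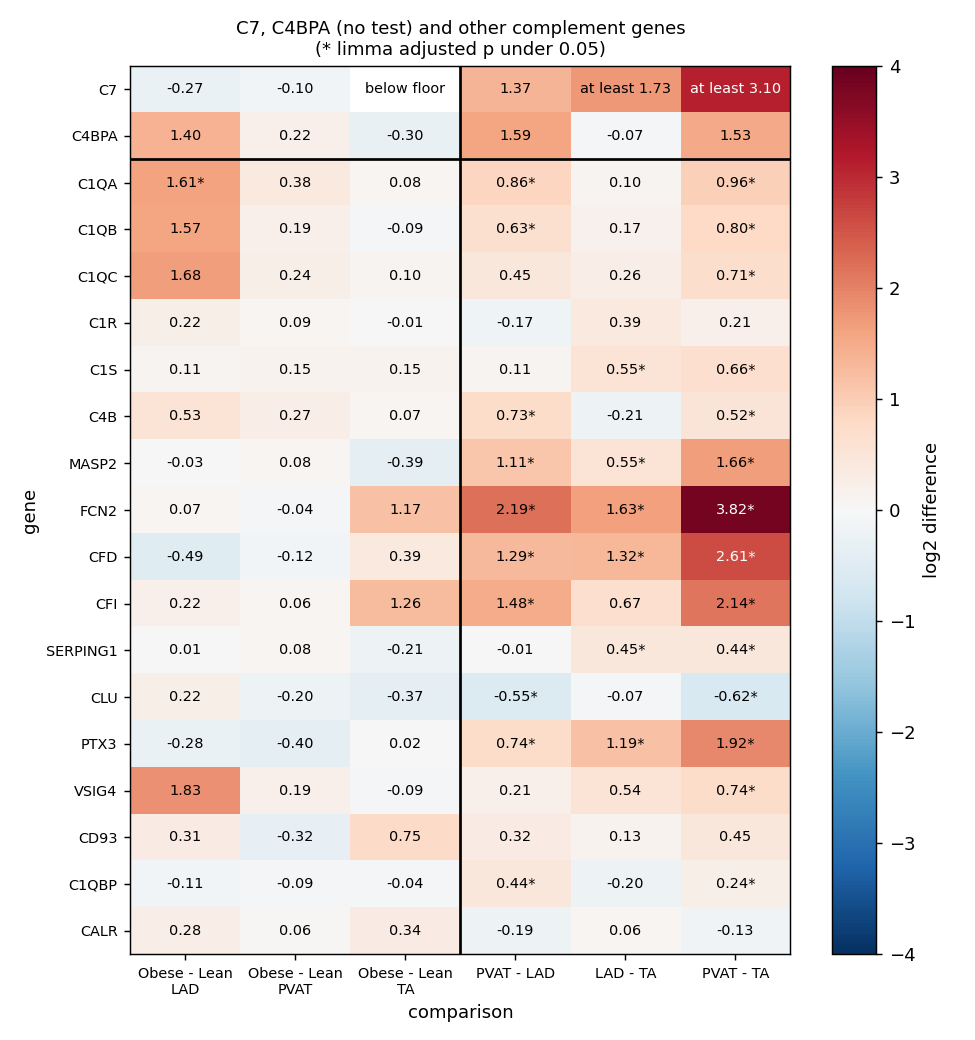
Log2 differences of C7, C4BPA and other tested complement genes in 6 comparisons (columns; red higher, blue lower in the group named before the minus sign), with an asterisk for a limma adjusted p under 0.05 among those others. C7 has 1.37, at least 1.73 and at least 3.10 in the tissue columns and no value for diet in TA, and in the first column C4BPA (1.40) stands with C1QA, C1QB, C1QC and VSIG4.

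In the terminal pathway itself, C7 and C8G were the genes of 7 listed with a probe set of that symbol, and the others were not analysed here. C8G, the gamma chain of C8, did not pass the filter, with means of 6.69 in obese and 6.73 in lean PVAT, 6.54 in obese and 6.53 in lean LAD, and 6.51 in obese and 6.56 in lean TA. These means are at or near 6.64, so no order of tissues is read from them. VTN, vitronectin, which holds the pore complex in solution, did not pass either and had its highest means in LAD, 8.47 ± 0.26 in obese and 8.35 ± 0.31 in lean pigs. CD59, which stops C9 at the cell surface, was named by the platform annotation on 2 probe sets. The brighter CD59 probe set had means of 11.48 to 11.88 in all 6 groups, and its PVAT minus TA of 0.28 passed in limma (adjusted p = 0.0126), while that of the dimmer one, -0.11, did not.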

How the data were processed

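RNA of 3 tissues from 11 pigs was measured on 32 Affymetrix porcine arrays. The deposited log2 values per probe set were made by the authors with affy, per the submitters' processing notes. Its version and the background correction and normalization are not given in the sources used here. Groups come from the labels, and replicates are separate pigs. The members and all gene lists were chosen with earlier results of these data known. Probe sets in the lowest 30% by mean were not tested. limma 3.58.1 in R 4.3.3 (statmod 1.5.0) fitted diet within each tissue, and tissues and differences of diet differences in 1 fit of 6 groups, with two-sided moderated tests, Benjamini-Hochberg adjustment and calls at an adjusted p under 0.05. The test was tested on simulated data. For genes with several probe sets the brightest was used.

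Named were C7 and C4BPA, listed complement genes that were called, the terminal, soluble regulator and central genes, and for each of the 2 genes the 5 most alike by Pearson r. VSIG4, C1QB and C1QC under diet, and CD59, were named after their values were seen. ITGB2, C2, CD55, CFP and CD46, given at the end, also fall outside this rule. No fold is given where a group mean is below 6.64, and C7 differences from TA are lower bounds with TA set to 6.64. Same-numbered samples are tissues of 1 pig. Their deviations from group means correlated at -0.20 to 0.50 over 31 pairs (median 0.24, over 0.1 in 19). Alternatives changed the filter, normalization, fit, pig block, sacrifice date, covariates, annotation and samples. Arrays were all run on 1 date. The symbols of 28 probe set entries that had turned into dates were set aside. One of the listed complement genes is counted but not reported here by itself. No sequences or coordinates are printed.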

Additional observations from a re-analysis of the deposited data

How the results depend on the processing

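Over 18 differences of C7 and C4BPA, 401 values under alternatives gave 11 that moved by more than the spread between pigs and 17 that changed sign. Within sacrifice dates, C7 moved in PVAT to 0.54 on the first date, and in TA, where its values lie below 6.64 and no difference is read, to 1.20 on the first and -0.67 on the second. C4BPA moved in LAD to 2.08 on the second date, in PVAT to 1.05 and -0.40 on the first and second, and in TA to 0.67 and -1.47 on the first and last. The next settings were chosen after seeing the data. With the macrophage mean as a covariate C4BPA in LAD was 0.15, a fit that cannot separate that mean from diet. Without arrays with a 28S to 18S ratio under 0.8, its LAD minus TA and PVAT minus TA differences of diet differences were 0.97 and -0.15. Leaving out 1 pig at a time, C4BPA in LAD was 1.18 to 1.55 and C7 in PVAT minus LAD 1.27 to 1.44. With the pig as a replicate block, C4BPA in LAD was 1.40 (SE 0.38) and the pairing moved no value of these 2 genes by more than the spread between pigs. Complement genes called for diet in LAD numbered 1, and 0 with no filter, a filter of 50%, a covariate (the ratio, or heart muscle genes), or without arrays with a ratio under 0.8, and 4 in a fit of 6 groups with or without the replicate block, and 0 to 4 without 1 pig. In TA, 1 (CFI) was called with the ratio as a covariate, against 0. PVAT minus TA had 9 with the cardiomyocyte mean, against 15 (12 to 14 without 1 pig). PVAT minus LAD had 6 with platform symbols, against 11 (10 to 12 without 1 pig). LAD minus TA had 5 to 9, against 7. Counts within a date were not run. By Spearman rho, 2 of the 5 genes most like C7 over all arrays were shared and 4 of 5 with group means removed. For C4BPA 5 of 5 and 1 of 5 were shared.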

Other observations

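Genes of the complement list that fell under the filter on low values were not tested, and some of their levels differed widely between arrays. ITGB2, the beta chain of complement receptor 3 on leukocytes, ran from 7.17 to 10.18 in obese and 6.39 to 6.65 in lean LAD, where its mean was below 6.64. C2, the protease of the classical pathway, ran from 6.91 to 9.08 in obese and 6.32 to 6.90 in lean LAD. CD55, a membrane regulator encoded beside C4BPA, averaged 8.71 ± 0.29 in obese and 8.30 ± 0.35 in lean PVAT, against 7.16 ± 0.33 in obese and 6.81 ± 0.62 in lean LAD (SD, n = 5 and 6). In TA it ran from 6.26 to 11.09 in obese and 5.36 to 7.01 in lean pigs. CFP, properdin of the alternative pathway, averaged 7.18 ± 0.20 in obese and 7.12 ± 0.48 in lean PVAT, while the means of the 4 artery groups lay below 6.64. CD46, a membrane regulator also under the filter, had group means from 6.90 in lean PVAT to 7.25 in obese TA.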
